A study of Mus musculus with 14 samples.

Results

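Untreated mouse embryonic stem cells that combined a Tet1 knockout with Dnmt-TKO were compared with untreated wild-type cells. Dnmt-TKO is the usual name for cells that lack the DNA methyltransferases Dnmt1, Dnmt3a and Dnmt3b. All groups carry the label of the J1 line on the 129S4/SvJae background, and J1 is a long-established embryonic stem cell line. Each group had 2 libraries of poly(A)-selected RNA, out of 14 libraries in 7 groups in the whole series. The 2 libraries of untreated Dnmt-TKO cells with Tet1 intact served to test which genes differed between the 2 knockout genotypes. The labels do not say how Tet1 or the Dnmt genes were disrupted, whether a genotype is 1 clone, or whether replicates were separate cultures. The spread behind each p-value is that between libraries, and it may be technical in part. The genes described here are the 15759 of 37991 in the count table that reached 0.304 CPM (counts scaled to a fixed library total) in at least 2 of the 4 wild-type and Tet1-KO Dnmt-TKO libraries.

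DNA methylation in mammals is set by Dnmt3a and Dnmt3b and copied after replication by Dnmt1, which Uhrf1 brings to newly made DNA. The TET enzymes oxidise methylated cytosine, a substrate that cells without the 3 methyltransferases lack, and Tet1 also binds CpG-rich promoters and works with histone deacetylase and Polycomb complexes. In embryonic stem cells methylation is known for silencing germline genes with CpG-rich promoters, genes of the trophoblast lineage, the silent allele of imprinted genes and some endogenous retroviruses. The comparison asks what expression is left, gained or lost when both methylation and Tet1 are missing.

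The 2 wild-type libraries held 28043647 and 23354015 counts, and the Tet1-KO Dnmt-TKO libraries 37716145 and 41844823. Libraries of 1 group correlated across genes at 0.9909 to 0.9937 on the log2 CPM scale, while those of wild type and Tet1-KO Dnmt-TKO correlated at 0.9131 to 0.918. Libraries were scaled with TMM factors before CPM were computed. The strand setting of the counting is not given in the sources used here, so reads of overlapping genes cannot be told apart. Among the genes named below, this also holds for Tbx3, Tfcp2l1, Grhl2, Meg3, Gata3, Rnf2, Acvrl1, Gfra1, Slc32a1, Zdbf2, Igf2 and Hmga2. The summed level of 11 embryonic stem cell markers was 7900 and 8420 CPM in wild type and 7300 and 7070 CPM in Tet1-KO Dnmt-TKO. As a sum these markers were thus high in both genotypes, and a sum leans on the most abundant of them. Of these 11 markers, 2 rose and 6 fell, beside 27.0% rising and 24.9% falling among all genes tested.

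The targeted genes were read first. Tet1 on chromosome 10 had 590 and 524 CPM in wild type, 796 and 747 CPM in Dnmt-TKO, and 134 and 201 CPM in Tet1-KO Dnmt-TKO. Its level fell by 1.73 (SE 0.16) on the log2 scale against wild type (adjusted p = 3.76e-06), and its log2 difference from Dnmt-TKO was -2.2 (adjusted p = 1.05e-05). The Tet1-KO Dnmt-TKO libraries lay below all others, and reads from Tet1 remained in both. Dnmt1 on chromosome 9 had 385 and 304 CPM in wild type and 116 and 119 CPM in Tet1-KO Dnmt-TKO, a log2 change of -1.55 (SE 0.12, adjusted p = 9.21e-07), with 117 and 129 CPM in Dnmt-TKO. Dnmt3a, which overlaps Dnmt3aos, went from 70.5 and 76.7 CPM to 15 and 21.6 CPM and stood at 38.2 and 37.7 CPM in Dnmt-TKO. Dnmt3a was thus lower than in Dnmt-TKO as well (log2 difference -1.05, adjusted p = 0.000648). Dnmt3b had 107 and 118 CPM in wild type and 44.3 and 51.3 CPM in Tet1-KO Dnmt-TKO (log2 change -1.23, adjusted p = 3.33e-06). Counts per gene cannot show whether the remaining reads come from outside the disrupted exons.

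Other parts of the methylation machinery moved as well. Dnmt3l, the catalytically inactive partner of the de novo enzymes, rose from 70.1 and 90.6 CPM to 511 and 514 CPM (log2 change 2.67, SE 0.13). It overlaps Aire, and Dnmt-TKO was also high, at 610 and 624 CPM. Tet2 fell by 1.09 on the log2 scale, from 259 and 228 CPM to 105 and 123 CPM. It was also lower than the 155 and 140 CPM of Dnmt-TKO (-0.37, adjusted p = 0.034), a call lost under 3 of 14 alternatives, whose adjusted p ran from 0.015 to 0.266. Tet3 had 22 and 19.4 CPM in wild type and 21.7 and 27.7 CPM in Tet1-KO Dnmt-TKO and did not pass the test (log2 difference 0.25, adjusted p = 0.15). Uhrf1 differed by 0.04 (SE 0.12) and did not pass either. Zfp57, a zinc finger protein that keeps methylation at imprinted regions, fell from 531 and 527 CPM to 286 and 255 CPM. The plot of the methylation machinery shows these genes library by library, and Tet1, Dnmt3a and Tet2 were lower in Tet1-KO Dnmt-TKO than in Dnmt-TKO by the test. Of the 28 genes of the methylation list, 6 rose and 13 fell, beside 27.0% rising and 24.9% falling among all genes tested. Against Dnmt-TKO, 1 member was higher and 4 were lower, beside 11.3% and 10.2% of all genes tested. The first count moved without either wild-type library, and it was 3 with a replicate block or with no low-count filter.

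**Figure D1:**
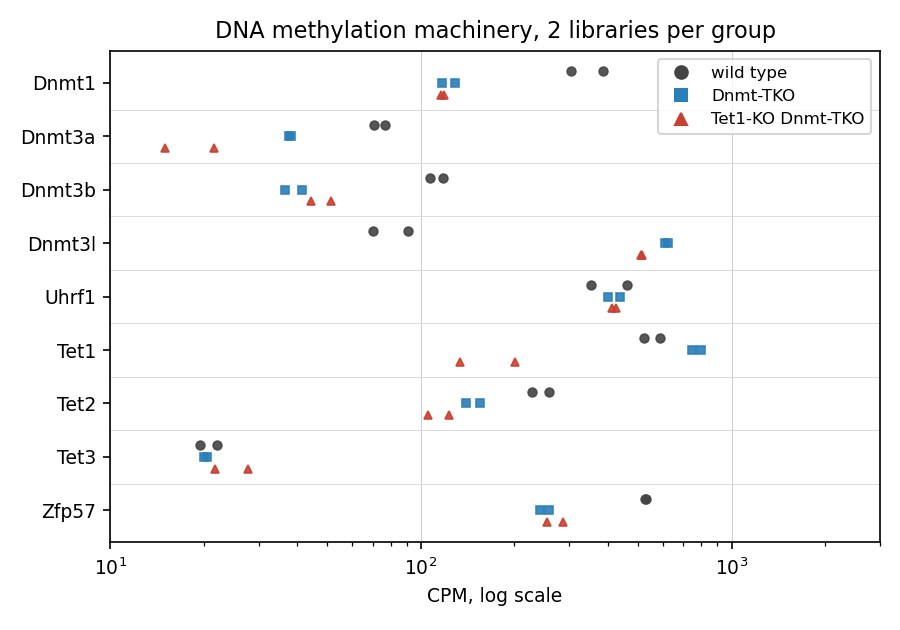
CPM on a log axis of 9 genes of the DNA methylation machinery in each of 6 libraries, with 2 points per group for wild type, Dnmt-TKO and Tet1-KO Dnmt-TKO. Tet1 was at 134 and 201 CPM in Tet1-KO Dnmt-TKO, below the 524 to 796 CPM of the other libraries, and Dnmt3a was lowest there too.

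Against wild type 4257 genes rose and 3923 fell in Tet1-KO Dnmt-TKO, which is 51.9% of the genes tested (edgeR quasi-likelihood test, adjusted p under 0.05). The median log2 change was -0.004, and the median absolute change was 0.45. Over 2-fold, 2248 genes rose (14.3%) and 1567 fell (9.94%). Rises over 2-fold came mostly from genes with little RNA in wild type. Among the 2825 genes above 0 and under 1 CPM there, 1148 rose over 2-fold (40.6%), and among the 2246 genes at 100 CPM or more, 23 did (1.02%). Falls over 2-fold were spread more evenly, with 240 genes under 1 CPM, 718 between 1 and 10 CPM, 501 between 10 and 100 CPM and 108 above. Of the genes tested, 1127 reached the minimum only in the Tet1-KO Dnmt-TKO libraries, so they could hardly be called other than rising, and 863 of them were. Another 636 reached it only in wild type, of which 372 fell.

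**Figure D2:**
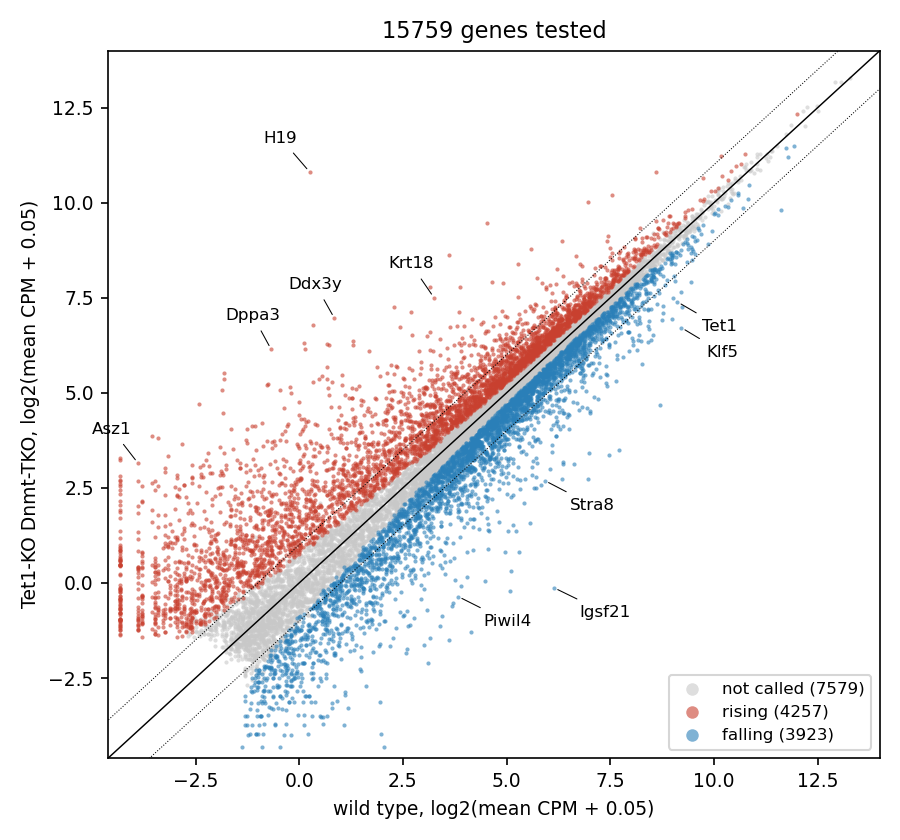
Mean level of each of 15759 genes in wild type (x axis) and Tet1-KO Dnmt-TKO (y axis), as log2 of mean CPM plus 0.05, where red marks the 4257 rising genes, blue the 3923 falling genes and grey the rest. The solid line is equality and the dotted lines are 2-fold, and the rising genes spread widest at the left, where wild type was lowest.

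Most of the large changes were not called different from Dnmt-TKO with Tet1 intact. Of the 2248 genes that rose over 2-fold, 1292 (57.5%) did not pass the test against Dnmt-TKO, 698 were higher than there and 258 were lower. Of the 1567 that fell over 2-fold, 1107 (70.6%) did not pass it, 423 were lower and 37 were higher. Both tests use the same Tet1-KO Dnmt-TKO libraries. Genes picked because they rose therefore lean towards higher, and genes picked because they fell towards lower. Over all genes tested, 1788 (11.3%) were higher and 1613 (10.2%) lower than in Dnmt-TKO, with a median absolute log2 difference of 0.26. These 2 counts rest on single libraries, and leaving out 1 library at a time gave 707 to 2298 higher and 641 to 2041 lower genes. Of these calls 52.6% were higher, and 42.3% were when libraries were scaled by their totals alone. A separate experiment with its own libraries compared Dnmt-TKO and wild type under the vehicle DMSO. Of the 4206 rising genes tested there too, 3384 also rose, which is 80.5% of these genes and 64.4% of the 5253 that rose under vehicle (34.0% of all genes tested in both). For falling genes the shared number was 2923, or 75.7% of 3860 and 51.5% of 5675 (36.7%).

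Chromosomes differed from one another. On chromosome 1 the median log2 change was -0.42, with 429 of 842 genes falling (51.0%) and 142 rising (16.9%). On chromosome 8 it was 0.29, with 354 of 804 genes rising (44.0%), and on the X chromosome it was 0.33, with 279 of 595 rising (46.9%). All other autosomes together had a median of -0.01, with 26.1% rising and 24.7% falling. In 4 consecutive blocks of equal gene number along chromosome 8 the medians were 0.49, 0.50, 0.12 and -0.07, and along chromosome 1 they were -0.49, -0.53, -0.46 and -0.21. Against Dnmt-TKO the medians of chromosomes 1, 8 and X were 0.05, 0.00 and 0.04. On the Y chromosome all 7 genes tested rose. Ddx3y, a Y-linked RNA helicase, had 1.44 and 2.06 CPM in wild type, 119 and 131 CPM in Tet1-KO Dnmt-TKO, and 125 and 105 CPM in Dnmt-TKO. Gene copy number was not measured, and its part in the values of genes on these chromosomes was not tested.

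**Figure D3:**
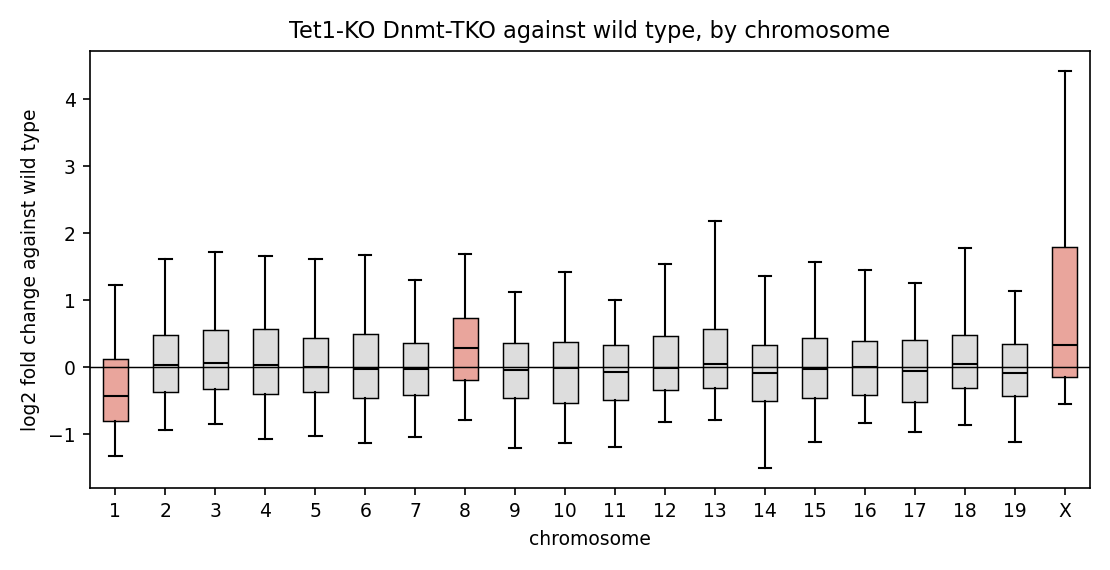
Log2 fold change of Tet1-KO Dnmt-TKO against wild type for the genes of each chromosome, with boxes for the quartiles, a line for the median and whiskers at the 10th and 90th percentiles. The tinted boxes are chromosome 1, with a median of -0.42, chromosome 8, with 0.29, and X, with 0.33.

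Germline genes known to be silenced by promoter methylation included rising and falling members. Of 61 listed, 53 were tested, and 47 of those reached the minimum in both genotypes. Of these 47, 17 rose and 24 fell, beside 27.0% rising and 24.9% falling among all genes tested. The 5 that reached it only in Tet1-KO Dnmt-TKO all rose and the 1 that reached it only in wild type fell. The median log2 change of the 53 was -0.14, beside -0.004 for all genes. Compared with Dnmt-TKO, 28 of the 53 were lower and 0 were higher, beside 10.2% and 11.3% of all genes, with a median of -0.70 beside 0.004 for all genes. This count of lower genes stayed within 1.5 times under every alternative tried. The 8 untested members had at most 26 counts in any library.

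Among regulators of germ cell identity, Dazl, an RNA-binding protein needed for germ cell development, rose. Dazl on chromosome 17 had 11.5 and 10.9 CPM in wild type, 56.3 and 51.4 CPM in Dnmt-TKO and 48.5 and 47.9 CPM in Tet1-KO Dnmt-TKO. Its log2 change was 2.1 (SE 0.11, adjusted p = 4.92e-08), and both knockout genotypes lay far above wild type. Stra8 on chromosome 6, the retinoic acid-induced gene that opens the way to meiosis, went the other way. It had 54 and 67.5 CPM in wild type, 44.8 and 31.6 CPM in Dnmt-TKO, and 7.54 and 5.27 CPM in Tet1-KO Dnmt-TKO. Stra8 thus fell by 3.25 on the log2 scale (SE 0.21, adjusted p = 1.89e-07) and was lower than in Dnmt-TKO (log2 difference -2.58, adjusted p = 1.67e-05). Ddx4 on chromosome 13, the Vasa RNA helicase of germ cells, had 29.4 and 35.6 CPM in wild type, 28 and 28.1 CPM in Dnmt-TKO and 16.3 and 17.7 CPM in Tet1-KO Dnmt-TKO. It fell against wild type (log2 change -0.93, adjusted p = 7.3e-05) and was lower than in Dnmt-TKO (-0.72, adjusted p = 0.002). Brdt, the testis bromodomain protein, fell from 9.89 and 11.9 CPM to 0.403 and 0.589 CPM, and Dnmt-TKO was as low, at 0.657 and 0.488 CPM. Of the 14 tested genes of this group, 5 rose, 8 fell and 6 were lower than in Dnmt-TKO, beside 27.0%, 24.9% and 10.2% of all genes.

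Meiotic chromosome genes also moved both ways. Smc1b, the meiotic cohesin subunit, had 6.77 and 6.8 CPM in wild type, 41.7 and 52 CPM in Dnmt-TKO and 13 and 16.6 CPM in Tet1-KO Dnmt-TKO. It rose against wild type (log2 change 1.12, adjusted p = 0.000132) but stood below Dnmt-TKO (-1.66, adjusted p = 3.55e-05), with the 3 groups apart. The axis protein Hormad1 rose from 13.4 and 24.1 CPM to 45 and 51.8 CPM. Meioc, which keeps germ cells in meiotic prophase, had 20.3 and 28.4 CPM in wild type and 28.1 and 26.9 CPM in Dnmt-TKO, and dropped to 6.74 and 5.32 CPM in Tet1-KO Dnmt-TKO. Its log2 change was -2.01 against wild type (adjusted p = 2.59e-06) and -2.19 against Dnmt-TKO (adjusted p = 1.73e-05). Stag3, another meiotic cohesin subunit, fell from 48.6 and 46.4 CPM to 29.5 and 28.7 CPM, below the 50.2 and 57.2 CPM of Dnmt-TKO (-0.88, adjusted p = 0.00023). Sycp1, a protein of the synaptonemal complex, had 9.09 and 12.1 CPM in wild type and 12.9 and 14.3 CPM in Tet1-KO Dnmt-TKO. Sycp1 did not pass the test (log2 difference 0.36, adjusted p = 0.074). In this group 4 of 14 tested rose, 8 fell and 6 were lower than in Dnmt-TKO, beside 27.0%, 24.9% and 10.2% of all genes.

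The piRNA pathway, which silences transposons in germ cells with small RNAs bound to PIWI proteins, held both strong rises and strong falls. Asz1, a mitochondrial scaffold of piRNA processing, had 1 read in the 2 wild-type libraries and 688 in those of Tet1-KO Dnmt-TKO. That is 9.53 and 8.17 CPM, a ratio of 452 with a 95% counting interval of 80.9 to 17900, and Dnmt-TKO had 9.69 and 9.11 CPM. Tdrd12, a Tudor-domain helicase of the pathway, rose from 7.37 and 7.77 CPM to 56.9 and 56.3 CPM (log2 change 2.9), below the 88.9 and 90.5 CPM of Dnmt-TKO (-0.66, adjusted p = 0.000645). Fkbp6 rose from 1.05 and 1.45 CPM to 19.1 and 17 CPM and was also below Dnmt-TKO (-0.72, adjusted p = 0.0032). Piwil4, the PIWI protein that directs methylation in fetal male germ cells, went the other way. It had 13.4 and 15 CPM in wild type, 7.4 and 6.38 CPM in Dnmt-TKO and 0.751 and 0.711 CPM in Tet1-KO Dnmt-TKO. The log2 change of Piwil4 was -4.27 (SE 0.2) against wild type and -3.23 against Dnmt-TKO (adjusted p = 4.91e-06), and it overlaps Gm10706. Piwil1 fell from 5.23 and 4.61 CPM to 0.644 and 0.736 CPM, and Tdrd1 from 2.91 and 3.64 CPM to 0.644 and 0.638 CPM. Mael, a piRNA factor that serves as a standard germline marker, fell from 19.6 and 24.1 CPM to 10.6 and 11 CPM, and its lower level than in Dnmt-TKO (14.1 and 15 CPM, adjusted p = 0.0472) was lost under 7 of 14 alternatives. Of 13 tested genes, 4 rose, 8 fell and 10 were lower than in Dnmt-TKO, beside 27.0%, 24.9% and 10.2% of all genes.

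Testis paralogues of housekeeping genes, retained copies that stand in for X-linked or somatic genes during spermatogenesis, mostly rose. Of 12 tested, 9 rose and 1 fell, beside 27.0% and 24.9% of all genes tested, and 3 of the 9 reached the minimum only in Tet1-KO Dnmt-TKO. Rpl39l, a testis ribosomal protein, rose from 19.7 and 31 CPM to 108 and 108 CPM. Cox7b2, a cytochrome c oxidase subunit, rose from 0.105 and 0.219 CPM to 5.9 and 4.42 CPM, and Ldhc, the lactate dehydrogenase of sperm, from 0.456 and 0.702 CPM to 4.59 and 4.1 CPM. Against Dnmt-TKO, 6 of the 12 were lower, beside 10.2% of all genes. The plot of germline genes shows the 53 members by their change in both genotypes.

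**Figure D4:**
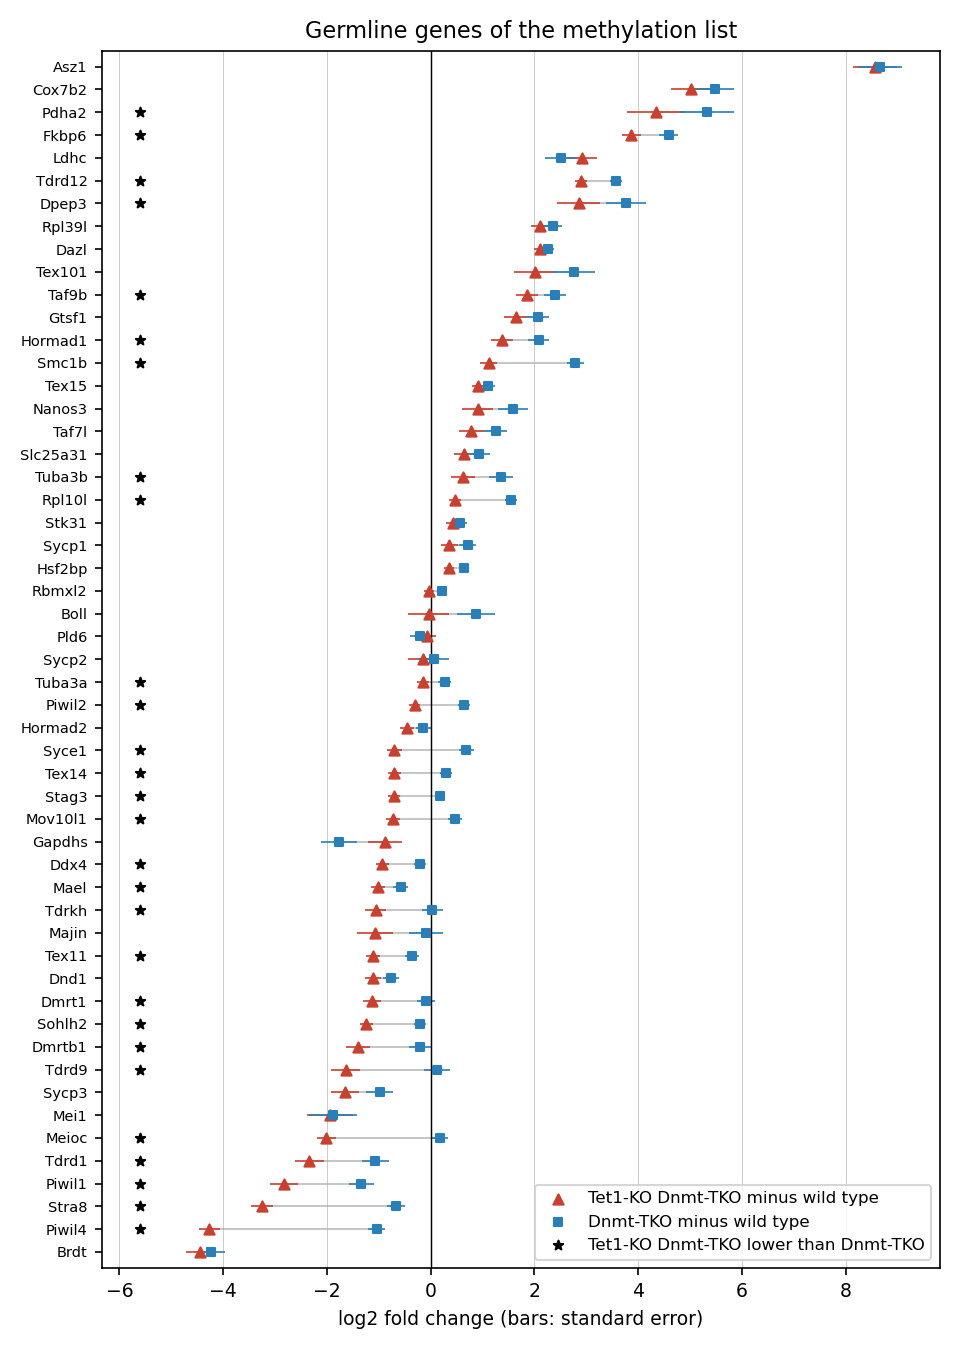
Log2 fold change against wild type of the 53 tested germline genes in Tet1-KO Dnmt-TKO (triangles) and Dnmt-TKO (squares), with bars for the standard error. The 2 sets of points use the same wild-type libraries, and stars mark the 28 genes tested as lower in Tet1-KO Dnmt-TKO than in Dnmt-TKO.

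Promoters of these genes are shown for 6 members, 2 that rose and 4 that fell, because the CACGTG E-box bound by Max and Mga in a Polycomb complex is known from germline promoters. Each line gives the 200 bases before the transcription start from RefSeq on GRCm38.p6, 5′ to 3′ on the strand of the gene, with capitals for CACGTG and for the E2F motif GCGGGA on either strand. The windows are Dazl at chr17:50293621-50293820 on the minus strand, Asz1 at chr6:18109062-18109261 on the minus strand, Brdt at chr5:107330994-107331193 on the plus strand, Ddx4 at chr13:112652311-112652510 on the minus strand, Piwil1 at chr5:128736046-128736245 on the plus strand and Stra8 at chr6:34920748-34920947 on the plus strand.
Dazl: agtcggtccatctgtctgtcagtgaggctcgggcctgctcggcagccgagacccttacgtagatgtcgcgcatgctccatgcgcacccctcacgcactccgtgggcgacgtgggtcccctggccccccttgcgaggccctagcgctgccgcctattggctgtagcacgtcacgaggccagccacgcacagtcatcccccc
Asz1: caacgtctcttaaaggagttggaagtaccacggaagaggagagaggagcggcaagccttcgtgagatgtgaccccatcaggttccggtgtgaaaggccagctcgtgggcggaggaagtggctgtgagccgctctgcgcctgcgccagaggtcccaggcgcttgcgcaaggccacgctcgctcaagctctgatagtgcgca
Brdt: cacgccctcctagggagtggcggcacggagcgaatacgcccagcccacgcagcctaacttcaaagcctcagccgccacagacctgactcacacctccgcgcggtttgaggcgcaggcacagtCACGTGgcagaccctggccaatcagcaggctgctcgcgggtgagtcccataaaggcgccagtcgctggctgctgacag
Ddx4: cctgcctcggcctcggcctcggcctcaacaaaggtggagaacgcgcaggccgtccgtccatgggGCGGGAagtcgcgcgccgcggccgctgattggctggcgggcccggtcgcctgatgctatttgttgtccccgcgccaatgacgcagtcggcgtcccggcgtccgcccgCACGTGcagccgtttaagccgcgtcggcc
Piwil1: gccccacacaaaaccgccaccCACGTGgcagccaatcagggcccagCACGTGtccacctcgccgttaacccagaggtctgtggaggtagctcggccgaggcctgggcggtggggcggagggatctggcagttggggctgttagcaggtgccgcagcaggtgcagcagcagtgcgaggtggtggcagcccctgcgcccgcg
Stra8: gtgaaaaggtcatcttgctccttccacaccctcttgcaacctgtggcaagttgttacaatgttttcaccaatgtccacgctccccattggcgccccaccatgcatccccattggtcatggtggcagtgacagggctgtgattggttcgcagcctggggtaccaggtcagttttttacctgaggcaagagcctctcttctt
The rising genes Dazl and Asz1 and the falling gene Stra8 have neither motif in these bases. Brdt has 1 E-box, Ddx4 has 1 of each and Piwil1 has 2 E-boxes. The windows of Dazl and Ddx4 hold 18 and 31 CpG dinucleotides and that of Stra8 holds 3. Over 300 bases, from 250 before to 50 after the start, 35 of the 53 germline genes matched exactly 1 listed promoter, and 12 of the 35 (34.3%) held CACGTG, beside 911 of 9064 tested genes (10.1%) and 7.12% of all 22862 promoters matched in this way. Among the falling members 8 of 16 held it and among the rising members 2 of 15 (13.3%). GCGGGA was in 42.9% of the 35, 36.2% of the tested genes and 19.6% of all promoters. A match describes the letters only, and the members that fell and rose were sorted by these data, so the shares carry no test.

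Germline genes on the X chromosome rose widely. This list holds the Rhox homeobox cluster, the Xlr genes and the Mage family, many of them near-identical copies whose reads the counting could split or drop. Of 47 listed, 41 matched an ID and 31 were tested, but only 10 reached the minimum in both genotypes. Of these 10, 8 rose and 1 fell, beside 27.0% and 24.9% of all genes tested. The other 21 reached the minimum only in Tet1-KO Dnmt-TKO and all rose. Mageb16, a Mage gene, rose from 11.3 and 12.6 CPM to 65.9 and 53.5 CPM, beside the 59.5 and 48.7 CPM of Dnmt-TKO. The median of the whole X chromosome, 0.33, stands beside these values, and its part in them was not tested.

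The Rhox genes separated from each other. Rhox6, expressed in placenta and germ cells, had 1.33 and 1.76 CPM in wild type, 23.7 and 21.3 CPM in Dnmt-TKO and 78.6 and 77.6 CPM in Tet1-KO Dnmt-TKO. It rose by 5.67 (SE 0.16) on the log2 scale and was higher than in Dnmt-TKO by 1.79 (adjusted p = 4.91e-06). Rhox9 had 0.21 and 0.263 CPM in wild type, 15.2 and 12 CPM in Dnmt-TKO and 48.6 and 43.1 CPM in Tet1-KO Dnmt-TKO, and was 1.75 higher than in Dnmt-TKO on the log2 scale (adjusted p = 1.73e-05). Rhox1 also rose, from 0.281 and 0.263 CPM to 6.31 and 5.35 CPM, yet lay below the 11.1 and 8.72 CPM of Dnmt-TKO, a difference that 2 of 14 alternatives did not call. Rhox10 was the 1 member to fall, from 3.19 and 5.18 CPM to 0.886 and 0.883 CPM, and it was also below Dnmt-TKO (-2.15, adjusted p = 0.000575). In the Xlr family 3 of the 10 tested genes reached the minimum in both genotypes, and those 3 rose, beside 27.0% of all genes tested. The other 7 reached it only in Tet1-KO Dnmt-TKO. Against Dnmt-TKO 8 of the 10 were lower, beside 10.2% of all genes tested. Xlr3b, for example, had 0.386 and 0.0878 CPM in wild type, 21.1 and 21.2 CPM in Dnmt-TKO and 12.2 and 8.95 CPM in Tet1-KO Dnmt-TKO. Usp26, a testis ubiquitin protease, rose to 6.87 and 5.54 CPM, below the 14.3 and 14.8 CPM of Dnmt-TKO (-1.23, adjusted p = 0.000439). Fthl17a, a ferritin-like gene, had 2 reads in wild type and 459 in Tet1-KO Dnmt-TKO, a ratio of 151 (counting interval 41.5 to 1250), and was higher than in Dnmt-TKO (2.17, adjusted p = 0.000542). Over the 31 genes 3 were higher than in Dnmt-TKO and 18 were lower, counts that dropped to 10 lower genes without Tet1-KO Dnmt-TKO replicate 2 and to 9 without Dnmt-TKO replicate 1.

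Genes of the 2-cell embryo, which flicker on in rare embryonic stem cells, were up against wild type and down against Dnmt-TKO. Of 17 tested, 13 rose, 0 fell, and 11 were lower than in Dnmt-TKO, beside 27.0%, 24.9% and 10.2% of all genes tested. Their median was 2.38 against wild type and -1.32 against Dnmt-TKO. In 8 of the 17 the minimum was reached only in Tet1-KO Dnmt-TKO, and 7 of the 13 rises come from those 8. Zscan4d, of a zinc finger cluster that marks the 2-cell-like state, had 0.702 and 1.36 CPM in wild type, 11.9 and 18.1 CPM in Dnmt-TKO and 6.39 and 4.29 CPM in Tet1-KO Dnmt-TKO. It rose by 2.4 on the log2 scale (adjusted p = 0.000107) and was below Dnmt-TKO by a log2 difference of -1.49 (adjusted p = 0.00221). Tmem92 went from 0.316 and 0.351 CPM to 5.31 and 3.39 CPM, with 19.4 and 21.3 CPM in Dnmt-TKO. Pramel7 rose from 0.0702 and 0.176 CPM to 2.42 and 1.55 CPM and did not pass the test against Dnmt-TKO. The Zscan4 genes are near-identical, and without Dnmt-TKO replicate 2 the number lower than in Dnmt-TKO was 7. In bulk RNA, a change in the share of cells in such a state and a change in RNA per cell cannot be told apart.

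Imprinted genes are read from only 1 parental allele in most tissues. Of 25 tested genes that are normally expressed from the paternal copy, 18 rose and 4 fell, with a median of 1.06. Of 22 normally expressed from the maternal copy, 6 rose and 9 fell, with a median of -0.05. Over all genes tested 27.0% rose and 24.9% fell, and the difference between the parental groups was not tested. Of the rises, 3 paternal and 2 maternal ones came from genes that reached the minimum only in Tet1-KO Dnmt-TKO. H19 on chromosome 7, a maternally expressed non-coding RNA, had the largest fitted rise of the genes tested that had any read in wild type. It had 1.23 and 1.05 CPM in wild type, 553 and 595 CPM in Dnmt-TKO, and 1770 and 1820 CPM in Tet1-KO Dnmt-TKO. Its log2 change was 10.61 (SE 0.16, adjusted p = 4.54e-12), it was 1.65 higher than in Dnmt-TKO (adjusted p = 4.07e-06), and it contains Mir675. Its neighbour Igf2, the paternally expressed growth factor, fell from 6.7 and 9.61 CPM to 5.77 and 5.1 CPM, a call lost without wild-type replicate 2 or without Tet1-KO Dnmt-TKO replicate 2.

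Several paternally expressed growth regulators rose. Plagl1, a zinc finger regulator of growth, rose from 0.14 and 0.132 CPM to 20.4 and 31.6 CPM, and Peg3 from 26.1 and 24.1 CPM to 217 and 263 CPM. Sfmbt2, a Polycomb-like gene needed in placenta, had 4.56 and 5.14 CPM in wild type, 60.2 and 60.4 CPM in Dnmt-TKO and 131 and 176 CPM in Tet1-KO Dnmt-TKO, and was higher than in Dnmt-TKO by 1.34 (adjusted p = 5.63e-05). Maternally expressed Meg3, which hosts microRNAs, rose from 48.2 and 31.6 CPM to 106 and 142 CPM, below the 190 and 246 CPM of Dnmt-TKO, a difference that 3 of 14 alternatives did not call. Cdkn1c, a cell cycle inhibitor, fell from 128 and 214 CPM to 31 and 42 CPM, and Kcnq1, a potassium channel of the same domain, from 0.947 and 1.58 CPM to 0.0537 and 0.0736 CPM. Zdbf2 fell from 275 and 269 CPM to 102 and 135 CPM. Zdbf2 lies on chromosome 1, whose median change was -0.42. Against Dnmt-TKO 8 of the 47 imprinted genes were higher and 9 lower, beside 11.3% and 10.2% of all genes tested. Both counts moved by over 1.5 times when Dnmt-TKO replicate 1 or replicate 2 was left out.

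Trophoblast genes rose and stood above Dnmt-TKO. The trophoblast is the outer lineage of the blastocyst that forms the placenta, and its genes are off or low in embryonic stem cells. Of 56 listed genes 41 were tested, and 27 of those reached the minimum in both genotypes, of which 22 rose and 2 fell. The other 14 reached it only in Tet1-KO Dnmt-TKO and all rose. Against Dnmt-TKO, 30 of the 41 were higher and 1 was lower, with a median log2 difference of 1.12 beside 0.004 for all genes. Over all genes tested 27.0% rose, 24.9% fell, 11.3% were higher than in Dnmt-TKO and 10.2% lower. The 14 that reached the minimum only in Tet1-KO Dnmt-TKO are among the 41. They were kept for their level there, which favours a higher call against Dnmt-TKO too. Without Dnmt-TKO replicate 2, 19 were higher. The 15 untested members had at most 62 counts in a library.

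Transcription factors of the lineage were part of this rise. Hand1, which drives giant cell formation, had 0.316 and 0.219 CPM in wild type, 6.4 and 5.24 CPM in Dnmt-TKO and 13.5 and 19.7 CPM in Tet1-KO Dnmt-TKO, and was higher than in Dnmt-TKO by 1.51 (adjusted p = 0.000453). Gata3 rose from 0.105 and 0.351 CPM to 6.9 and 7.29 CPM, and Tfap2c from 22.6 and 20.3 CPM to 124 and 109 CPM. Cdx2, which specifies the lineage, rose from 0.316 and 0.176 CPM to 1.5 and 2.72 CPM and did not pass the test against the 1.2 and 1.33 CPM of Dnmt-TKO (adjusted p = 0.141). Eomes had 4.95 and 5.27 CPM in wild type, 3.74 and 2.73 CPM in Dnmt-TKO and 10.5 and 11.3 CPM in Tet1-KO Dnmt-TKO, so that Tet1-KO Dnmt-TKO lay above both. Tead4, which acts upstream of Cdx2, fell from 61.6 and 47.2 CPM to 20.6 and 25.7 CPM and was nevertheless higher than the 11.7 and 9.66 CPM of Dnmt-TKO (1.12, adjusted p = 0.000809).

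Of the keratins and surface proteins, 11 reached the minimum in both genotypes and all 11 rose, beside 27.0% of all genes tested. Another 2 reached it only in Tet1-KO Dnmt-TKO. Krt18, a keratin of simple epithelia, had 8.8 and 10.1 CPM in wild type, 41.6 and 45.8 CPM in Dnmt-TKO and 160 and 204 CPM in Tet1-KO Dnmt-TKO. It rose by 4.27 (SE 0.15) on the log2 scale and was 2.06 higher than in Dnmt-TKO (adjusted p = 4.07e-06), and the 3 groups did not overlap. Krt7 rose from 1.26 and 1.19 CPM to 30.7 and 46.9 CPM, with 8.98 and 8.1 CPM in Dnmt-TKO. Cdh3, P-cadherin, rose from 16.9 and 13.4 CPM to 87.5 and 87.5 CPM. Of all 13 tested, the 2 kept through Tet1-KO Dnmt-TKO alone among them, 10 were higher than in Dnmt-TKO, beside 11.3% of all genes tested.

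Most placental hormones and proteases tested were at or near 0 in wild type. Of 11 tested, 8 reached the minimum only in Tet1-KO Dnmt-TKO, and all 8 rose. Of the 3 that reached it in both genotypes 1 rose and 1 fell, beside 27.0% and 24.9% of all genes tested. Tpbpa, a marker of the spongiotrophoblast, had 0 reads in both wild-type libraries, 1.17 and 1.59 CPM in Dnmt-TKO and 2.36 and 10.4 CPM in Tet1-KO Dnmt-TKO, at least 109-fold higher than a floor of 3 reads over the wild-type group. Serpinb9d, a placental serpin, was at least 91.9-fold higher, at 4 and 6.75 CPM, and Ctsj, a placental cathepsin, at least 111-fold higher, at 2.6 and 10.4 CPM. Floors and counting intervals leave out the spread between cultures and PCR duplicates, which these counts do not mark. The Tet1-KO Dnmt-TKO libraries differed here, with replicate 2 the higher one for Tpbpa, Ctsj and Serpinb9e (14.6 and 52.6 CPM). Wnt6 went the other way, from 23.8 and 23.7 CPM to 2.82 and 2.23 CPM. The summed level of 12 trophoblast markers was 59.1 and 66.3 CPM in wild type, 168 and 178 CPM in Dnmt-TKO and 573 and 795 CPM in Tet1-KO Dnmt-TKO. The plot of named trophoblast, X-linked, 2-cell and imprinted genes shows these orders library by library.

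**Figure D5:**
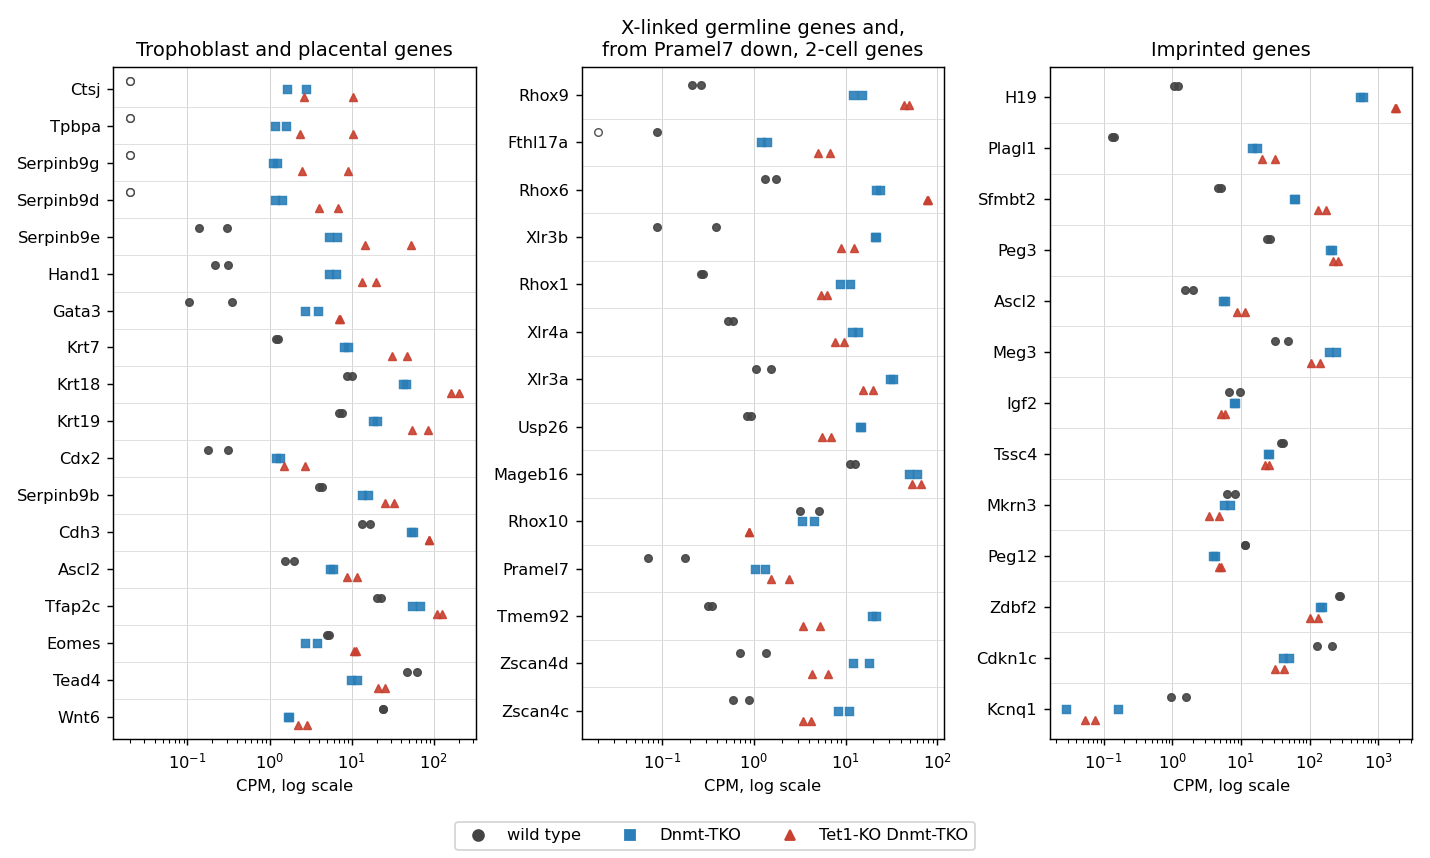
CPM on a log axis of the named genes of 4 lists in 6 libraries, with dark grey circles for wild type, blue squares for Dnmt-TKO, red triangles for Tet1-KO Dnmt-TKO and open symbols at the left edge for libraries with 0 reads. Among the trophoblast genes Krt18 runs from 8.8 CPM in wild type to 204 CPM in Tet1-KO Dnmt-TKO, while Zscan4d and the Xlr genes are highest in Dnmt-TKO.

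The pluripotency network was kept in part. Of 11 core factors 3 rose and 4 fell, beside 27.0% rising and 24.9% falling among all genes tested. Pou5f1 had 773 and 766 CPM in wild type and 538 and 506 CPM in Tet1-KO Dnmt-TKO (log2 change -0.56, SE 0.09), and it overlaps Gm19553. Sox2 fell from 697 and 629 CPM to 493 and 455 CPM. Nanog was at 821 and 893 CPM and at 749 and 616 CPM, a fall of 0.33 on the log2 scale whose call was lost under 5 of 14 alternatives. None of these 3 was called different from Dnmt-TKO. Mycn, also on the core list, rose from 66.6 and 48.2 CPM to 238 and 239 CPM. Naive factors split, with 10 of 25 rising and 11 falling. Klf5, a Krüppel-like factor of self-renewal, fell from 683 and 507 CPM to 96 and 113 CPM (log2 change -2.51, SE 0.15). Tbx3 fell from 364 and 381 CPM to 80.1 and 103 CPM, and Tfcp2l1, a gene of chromosome 1, from 633 and 559 CPM to 192 and 209 CPM. Dppa3, which protects methylation in the zygote and blocks Uhrf1, rose from 0.491 and 0.658 CPM to 81.5 and 60.3 CPM, above the 35.6 and 30.8 CPM of Dnmt-TKO (1.09, adjusted p = 0.000439). Klf2 rose from 86.4 and 79 CPM to 247 and 291 CPM.

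Of 17 tested genes of the primed epiblast, 14 reached the minimum in both genotypes. Of these 14, 11 rose and 1 fell, beside 27.0% and 24.9% of all genes tested. Grhl2, a regulator of epithelial enhancers, rose from 3.33 and 2.98 CPM to 66 and 72.1 CPM, with 59.1 and 69 CPM in Dnmt-TKO. Zic2 rose from 3.61 and 3.99 CPM to 40.5 and 45.7 CPM. Sall2 had 4.07 and 4.65 CPM in wild type, 9.41 and 9.66 CPM in Dnmt-TKO and 23.6 and 22.5 CPM in Tet1-KO Dnmt-TKO, and was higher than in Dnmt-TKO by 1.27 (adjusted p = 9.93e-05). The member that fell was Dnmt3b.

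Other lineages held rising and falling genes. Median log2 changes were 1.72 for neural, 1.37 for early mesoderm, 1.1 for fibroblast and 0.46 for endoderm genes, beside -0.004 for all genes. Of 13 neural genes 8 reached the minimum in both genotypes, of which 5 rose and 2 fell. Another 4 reached it only in Tet1-KO Dnmt-TKO and 1 only in wild type. Of the 13, 5 were lower than in Dnmt-TKO, beside 10.2% of all genes tested. This count of lower genes moved by over 1.5 times without Dnmt-TKO replicate 1. Pax6, the eye and forebrain regulator, had 0.702 and 0.176 CPM in wild type, 42.5 and 43.8 CPM in Dnmt-TKO and 12.7 and 10 CPM in Tet1-KO Dnmt-TKO, and stood between the other groups (-1.93 against Dnmt-TKO, adjusted p = 6.5e-05). Thbs1, a matrix protein on the fibroblast list, rose from 1.51 and 1.71 CPM to 30.6 and 31.2 CPM, while Thy1, a surface marker of fibroblasts, fell from 8.42 and 7.64 CPM to 0.886 and 0.81 CPM. The fibroblast markers summed to 11.3 and 10.8 CPM in wild type and 22.1 and 21.6 CPM in Tet1-KO Dnmt-TKO, and 2 of them, Dcn and Lum, had 0 reads in wild type. Gata6, a regulator of the primitive endoderm, had 15.4 and 31.3 CPM in wild type and 6.69 and 12.7 CPM in Dnmt-TKO. In Tet1-KO Dnmt-TKO it had 13 and 32 CPM, and these libraries overlapped those of wild type. Replicate 2 was the higher library in each group. Against Dnmt-TKO Gata6 did not pass the test (1.22, adjusted p = 0.0551), but 8 of 14 alternatives, the replicate block among them, called it higher. Of the 25 endoderm genes 9 rose, 3 fell and 10 were higher than in Dnmt-TKO, beside 27.0%, 24.9% and 11.3% of all genes tested. Without Tet1-KO Dnmt-TKO replicate 1, 14 rose. The count of higher genes was 19 without Tet1-KO Dnmt-TKO replicate 1, 3 without its replicate 2, 3 without Dnmt-TKO replicate 1, 5 with DESeq2 and 20 with a replicate block. The summed primitive endoderm markers were 541 and 807 CPM in wild type and 480 and 1200 CPM in Tet1-KO Dnmt-TKO. Only 13 of 37 Hox genes with an ID were tested. Of the 4 that reached the minimum in both genotypes 1 rose and 1 fell, and the other calls, 5 rises and 2 falls, came from genes that reached it in 1 genotype only.

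Among Polycomb genes, whose complexes silence developmental genes through histone marks, 11 of 23 PRC1 subunits rose and 6 fell, beside 27.0% and 24.9% of all genes tested. Bmi1, a defining subunit of canonical PRC1, rose from 7.75 and 10.2 CPM to 48.8 and 57.1 CPM and was higher than the 30.5 and 32.8 CPM of Dnmt-TKO (0.74, adjusted p = 0.00259). Rnf2, the catalytic subunit of PRC1, fell from 312 and 370 CPM to 178 and 186 CPM, and it lies on chromosome 1. The X-linked subunits Bcor and Scml2 rose, Bcor from 19.9 and 15.8 CPM to 118 and 127 CPM and Scml2 from 1.4 and 1.67 CPM to 49.8 and 32.5 CPM. In the germline complex PRC1.6, 2 of 10 partners rose and 3 fell, none over 2-fold, which is near the shares over all genes. Its DNA-binding partners Mga (227 and 203 CPM to 255 and 299 CPM), E2f6 (32.5 and 34.1 CPM to 25.5 and 22.3 CPM) and Max (108 and 105 CPM to 83.4 and 78.8 CPM) moved by log2 changes of 0.37, -0.48 and -0.39. The call of Mga was lost without Tet1-KO Dnmt-TKO replicate 2. For PRC2 the counts, 3 of 12 rising and 4 falling, none over 2-fold, were also near those shares.

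The largest rises and falls were in genes of varied function. Besides H19, Tpbpa, Ctsj and Serpinb9d, the 10 largest rises held the placental prolactin genes Prl4a1, Prl2a1 and Prl2c5, Serpinb9g, and the Y-linked Usp9y and Zfy1. All except H19 had 0 reads in wild type and so reached the minimum only in Tet1-KO Dnmt-TKO. The size of their rise is not defined, and their rank follows from how the fit treats 0 reads. Asz1, with 1 read in wild type, had a ratio of 452, above the lower bounds printed for these genes, and is not among the 10. Prl4a1 was at 5.82 and 12.7 CPM, at least 159-fold higher, and Usp9y at 7.54 and 6.33 CPM, at least 119-fold higher. The 10 largest falls were Tnxb, Igsf21, Slc32a1, Nkx6-3, Tlx2, Hal, Acvrl1, Tmem179, Gfra1 and Prrx2. Igsf21, an adhesion protein of synapses, fell from 76.3 and 65.1 CPM to 0.751 and 0.981 CPM (log2 change -6.34, SE 0.18, adjusted p = 4.48e-10), with 3.03 and 3.29 CPM in Dnmt-TKO. Tnxb, a matrix protein that overlaps a Cyp21a2 pseudogene, had 3.75 and 4.43 CPM in wild type, 0.8 and 0.878 CPM in Dnmt-TKO and 0 reads in both Tet1-KO Dnmt-TKO libraries, at least 106-fold lower than in wild type. Hal, histidine ammonia-lyase, fell from 35.5 and 31.7 CPM to 0.939 and 0.687 CPM. Acvrl1, a TGF-beta family receptor, fell from 12.2 and 12.2 CPM to 0.161 and 0.442 CPM.

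The genes that set Tet1-KO Dnmt-TKO apart from Dnmt-TKO most clearly fell into both directions. Rnf128, a ubiquitin ligase, had 1.3 and 1.54 CPM in wild type, 5.92 and 4.88 CPM in Dnmt-TKO and 40.4 and 46.2 CPM in Tet1-KO Dnmt-TKO, and was 3 higher than in Dnmt-TKO on the log2 scale (adjusted p = 2.16e-06). Tmcc3 had 3.09 and 3.03 CPM in wild type, 4.49 and 4.59 CPM in Dnmt-TKO and 21.3 and 24.6 CPM in Tet1-KO Dnmt-TKO. Ap1m2, a clathrin adaptor of epithelia, had 4.28 and 4.48 CPM, 10.3 and 10.1 CPM, and 39.1 and 35.2 CPM in the same order. The other higher genes were H19, Krt18, Rhox6, Hmga2 and Cald1.

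Ctcfl, the testis paralogue of the insulator protein CTCF, led the lower genes. It had 1.23 and 1.27 CPM in wild type, 45.1 and 43.3 CPM in Dnmt-TKO and 4.83 and 5.25 CPM in Tet1-KO Dnmt-TKO, a log2 difference of -3.13 from Dnmt-TKO (SE 0.13, adjusted p = 6.23e-07), and it overlaps Ctcflos. Efhc2, an X-linked gene with EF-hand motifs, had 0.21 and 0.219 CPM, 31.4 and 30.9 CPM, and 5.66 and 5.72 CPM in the same order. Nexn, an actin-binding protein of muscle, had 0.947 and 1.45 CPM, 21.8 and 28.2 CPM, and 3.3 and 3.09 CPM. Aass, an enzyme of lysine breakdown, had 0.666 and 0.79 CPM, 79.4 and 86.7 CPM, and 26.3 and 22.4 CPM. In these 4 genes the gain of Dnmt-TKO over wild type was there in Tet1-KO Dnmt-TKO only in part, and each was still above wild type by the test. Clgn, a testis chaperone, Emp1, Actn3 and Piwil4 were instead below both other groups. Actn3, a muscle actinin, had 25.5 and 25.2 CPM in wild type, 26.8 and 27.3 CPM in Dnmt-TKO and 6.55 and 6.77 CPM in Tet1-KO Dnmt-TKO, and the other 4 libraries lay close together.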

How the data were processed

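Gene counts were used as the authors deposited them, 1 whole number per gene and library. The submitters' processing notes list HTSeq 0.5.3p9 and TopHat2 2.0.2 besides Bowtie 0.12.8, with mm9 as the build. The sources used here do not name an annotation release or a strand setting. Symbols were matched by gene ID for 32938 of 37991 IDs. Genes were kept at a minimum count of 10 in a library of median size in at least 2 of the 4 wild-type and Tet1-KO Dnmt-TKO libraries and a total of at least 15. edgeR 4.0.16 in R 4.3.3 fitted the 6 untreated libraries with TMM scaling, and its quasi-likelihood F-test gave p-values with Benjamini-Hochberg adjustment over 15759 genes, called at 0.05. The biological coefficient of variation was 10.5%, with 3 residual degrees of freedom. The comparison with Dnmt-TKO is a contrast of the same fit. Libraries held 23354015 to 41844823 counts. Recovery was tried on simulated data of 15499 genes for the comparison with wild type. Of genes changed by 0.5, 1, 2 and 3 on the log2 scale, 30%, 74%, 96% and 100% were recovered. Each step changed 50 genes, none of them at low counts. These shares thus do not carry over to low-count genes or to data with 51.9% of genes called.

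The members and gene lists were chosen with earlier results of these data known. Genes were named by rule: up to 3 per list role and direction, 10 with the largest rises and falls, 8 per direction that differed most from Dnmt-TKO (at a mean of at least 1 CPM), and a few preset anchors. The alternatives were other scalings, other filters, DESeq2 1.42.0, a fit of only the groups compared, a replicate block and leaving out each library. RefSeq promoters were matched by symbol on GRCm38.p6, and no other coordinates are given because the counts used mm9.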

Additional observations from a re-analysis of the deposited data

Results flagged for a closer look

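In 4 named genes the Tet1-KO Dnmt-TKO and Dnmt-TKO libraries lay on opposite sides of wild type, and the 2 genotypes differed by edgeR's quasi-likelihood test. Hmga2 and Cald1 were named because they differ most from Dnmt-TKO, so this number describes the named genes and is no share of all genes. Tet1, the targeted gene, was above wild type in both Dnmt-TKO libraries and below it in both Tet1-KO Dnmt-TKO libraries, a log2 difference of -2.2. Eomes, a T-box factor of trophoblast and mesendoderm, had a log2 difference of 1.75. Hmga2, a chromatin protein of early embryos that overlaps 1700006J14Rik, had 12.8 and 12.9 CPM in wild type, 7.26 and 7.25 CPM in Dnmt-TKO and 34.6 and 40.2 CPM in Tet1-KO Dnmt-TKO, a log2 difference of 2.37. Cald1, an actin-binding protein, had 57.9 and 55.3 CPM in wild type, 39.9 and 41.5 CPM in Dnmt-TKO and 122 and 138 CPM in Tet1-KO Dnmt-TKO, a log2 difference of 1.68.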

How the results depend on the processing

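The counts of genes that rose and fell against wild type stayed within 1.5 times under all 14 alternatives, at 3579 to 4646 rising and 3181 to 4235 falling. The counts against Dnmt-TKO ranged from 707 to 2298 higher and from 641 to 2041 lower when 1 library was left out, where the lone sample is assumed to vary like the other groups. The lowest came without Dnmt-TKO replicate 1 (707) and replicate 2 (641), and leaving out either Tet1-KO Dnmt-TKO library gave 1307 and 1041 higher and 939 and 1025 lower genes. Other alternatives gave 1456 to 2316 higher and 1385 to 2068 lower. A replicate block gave 4496 rising and 4235 falling genes, and 2288 higher and 2068 lower than in Dnmt-TKO. The labels do not tie same-numbered libraries to a shared culture or day, and 2 replicates per group are too few to take the numbers as pairs. The differences of replicate 1 from replicate 2 correlated between groups at 0.12 to 0.25 over 15759 genes, all above 0, and the block moved the endoderm genes higher than in Dnmt-TKO from 10 to 20 and the imprinted genes lower than there from 9 to 15. Of 212 named genes, 191 kept their call against wild type under all 14 alternatives and 153 kept that against Dnmt-TKO. Of 84 counts over lists, 41 moved by over 1.5 times under at least 1 alternative. Among the named genes, no direction that had been called was reversed, and other genes were not checked for this. Genes at a few counts per library are limited by depth.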

Other observations

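In the integrated stress response, by which cells answer amino acid shortage and misfolded protein, 19 of 34 tested genes fell and 5 rose, with a median log2 change of -0.37, and 8 rose without wild-type replicate 2. Over all genes tested 27.0% rose and 24.9% fell. Atf4, the regulator of that response, went from 244 and 291 CPM in wild type to 77.3 and 86.7 CPM in Tet1-KO Dnmt-TKO, with 62.7 and 76 CPM in Dnmt-TKO. Of 29 tested p53 targets, 18 rose and 2 fell. Pmaip1, a pro-apoptotic target, was 1 of the 2 and went from 66 and 68.8 CPM to 17.8 and 15.3 CPM. Of 33 interferon genes 27 reached the minimum count in both genotypes, and 9 of those rose and 7 fell, near the 27.0% and 24.9% of all genes tested. Xaf1, an interferon-induced gene, fell from 89.1 and 71.9 CPM to 6.76 and 6.53 CPM.

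Of 32 genes of glycolysis and the hypoxia response, 7 rose and 10 fell, also near those shares. Ndrg1, a hypoxia-induced gene, had 12.1 and 14.5 CPM in wild type, 11.9 and 15.1 CPM in Dnmt-TKO and 34.9 and 41.5 CPM in Tet1-KO Dnmt-TKO, a log2 difference of 1.51 from Dnmt-TKO. In the list of proliferation genes, Ccnd3, a D-type cyclin that overlaps Bysl, fell from 759 and 633 CPM to 247 and 232 CPM.

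Promoters differed in CpG content by the level in wild type and, at 1 CPM or more there, also between called and uncalled genes. The median observed over expected CpG was 0.758 for tested genes with exactly 1 listed promoter and 0.582 for those that rose over 2-fold. Among genes under 1 CPM in wild type it was 0.469 for those that rose over 2-fold and 0.478 for those not called. At 1 CPM or more it was 0.702 for genes that rose over 2-fold and 0.645 for those that fell over 2-fold. Genes not called at that level had 0.806.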
